A study of Mus musculus with 68 samples.

Results

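The immediate-early regulators Fos, Fosb, Jun, Junb, Egr1, Egr2, Egr3, Ier2, Klf2 and Klf4, 10 genes that respond to growth factors, mechanical load and stress, were described across 17 cultures of mouse bone mesenchymal stromal cells. They were taken by their symbols from a count table of 27179 Entrez gene identifiers, in which all 10 were present, and all 10 passed the filter on low counts that left 14897 genes for testing. The cells were grown from long bones of mice at 3 or 12 months of age. Heterozygous mice (Het) carried 1 floxed Ezh2 allele together with Prrx1-Cre, and wild-type mice (WT) carried Prrx1-Cre with both Ezh2 alleles intact, so every culture came from an animal with the Cre transgene, whose promoter is active in limb mesenchyme. The deposited design statement counts 3 cultures in each group, whereas the sample labels name 4, 3, 4 and 6, and every n and p here follows the labels. The groups were WT 3M (4 cultures, S3, S4, S5 and S12), Het 3M (3 cultures, S8, S10 and S14), WT 12M (4 cultures numbered S2, S6, S7, S13) and Het 12M (6 cultures, S1, S9, S11, S15, S16 and S17). Each culture was a polyadenylated RNA library sequenced as 4 technical replicates, which were summed. The design asks how loss of 1 Ezh2 allele, age and both together bear on the transcripts of these cells. The labels do not say whether each culture came from a separate animal, so p-values measure the spread between cultures only. The most alike pair of cultures was S8 and S10, both Het 3M, and the next was S3 and S4, both WT 3M. Whether either pair shared an animal is not stated.

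Immediate-early genes are switched on within minutes of a stimulus without new protein synthesis, by kinases of the MAP kinase pathways acting on factors already in the cell, such as SRF with its ternary complex partners and CREB. FOS proteins pair with JUN proteins to form AP-1, EGR proteins are zinc-finger activators of GC-rich sites, and Krüppel-like factors (KLF) are zinc-finger regulators of quiescence, differentiation and flow responses. Their transcripts are short-lived, and handling such as trypsin release or tissue digestion is known to induce them in many cell types. In osteoblast-lineage cells AP-1 and EGR genes are known for their response to loading and to parathyroid hormone.

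RefSeq start-site windows of GRCm38.p6 (the mm10 build), each of 300 bases (250 before and 50 after the start), were held for 7 of the 10 genes: Fos, Fosb, Jun, Junb, Egr2, Klf2 and Klf4. The 250 bases before the start of Fos, Egr2 and Klf4 are shown. Fos had the smallest p of the 10 genes between genotypes at 12 months, and Klf4 had the smallest p in any comparison. Egr2 was the only one of the 7 with an SRF site inside these windows. Letters are 5′ to 3′ on the strand of the gene, in lower case, with every match to a searched motif in capitals. The Fos stretch is chr12:85473640-85473889 on the plus strand, the Egr2 stretch is chr10:67537619-67537868 on the plus strand, and the Klf4 stretch is chr4:55532476-55532725 on the minus strand. None of the stretches overlaps an annotated exon. Egr2 has 5 start sites in the table, and the stretch shown lies within the annotated span of the gene, between exons.
Fos: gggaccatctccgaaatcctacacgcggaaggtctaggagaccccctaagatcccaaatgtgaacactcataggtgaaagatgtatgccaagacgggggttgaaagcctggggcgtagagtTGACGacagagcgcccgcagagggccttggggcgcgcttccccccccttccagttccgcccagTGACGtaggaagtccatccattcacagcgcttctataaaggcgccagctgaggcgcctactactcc
Egr2: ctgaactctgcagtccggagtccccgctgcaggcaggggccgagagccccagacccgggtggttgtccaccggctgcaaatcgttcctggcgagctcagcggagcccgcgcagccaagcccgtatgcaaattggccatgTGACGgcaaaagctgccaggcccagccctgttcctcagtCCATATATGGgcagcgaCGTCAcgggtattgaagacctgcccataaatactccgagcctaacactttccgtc
Klf4: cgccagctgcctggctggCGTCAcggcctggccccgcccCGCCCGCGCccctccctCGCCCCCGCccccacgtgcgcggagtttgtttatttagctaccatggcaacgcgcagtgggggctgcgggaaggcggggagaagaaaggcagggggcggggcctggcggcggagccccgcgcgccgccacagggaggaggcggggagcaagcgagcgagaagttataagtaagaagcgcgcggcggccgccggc
In Fos the capitals mark 2 copies of TGACG, the core of a cAMP response element, at 129 and 66 bases before the start. In Egr2 they mark a CArG box, the SRF site, at 72 bases before the start, a TGACG before it and a TGACG of the opposite strand (printed CGTCA) after it. In Klf4 they mark a TGACG of the opposite strand (CGTCA) followed by 2 EGR sites (GCGNGGGCG), also read on the opposite strand, beginning 211 and 194 bases before the start. The motifs were searched on both strands of each whole window, and each match is a description of letters only. Bases farther than 250 before a start were not searched, so a gene without a match here can hold the site elsewhere. Egr1, Egr3 and Ier2 had no window. The counts below are per gene, with 5 windows for Egr2, while the percentages are per window. A CArG box (CC, then 6 bases of A or T, then GG) was found in 1 of the 7 genes (Egr2) and in 1.63% of the 32851 windows of the table. The EGR site was found in 3 genes (Fosb, Klf2 and Klf4) and in 5.55% of windows. TGACG was found in 6 genes (all of the 7 but Jun) and in 20.8% of windows. The full cAMP response element TGACGTCA, which contains TGACG, and the AP-1 site TGANTCA were found in none of the 7 genes, against 1.79% and 7.81% of windows.

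Summed counts ran from 13687876 to 28597221 per culture. The targeted gene Ezh2, which encodes the H3K27 methyltransferase of Polycomb repressive complex 2, was read in CPM (counts scaled to a common library size). WT cultures had 12.6 ± 2.33 CPM (SD, n = 4) at 3 months and 19.8 ± 12.3 (n = 4) at 12 months, and Het cultures had 11.1 ± 2.29 (n = 3) and 17.8 ± 5.52 (n = 6). The log2 difference Het minus WT was -0.19 (95% interval -1.09 to 0.71) at 3 months and -0.16 (-0.91 to 0.59) at 12 months, and a log2 ratio of -1, that of 1 allele to 2, lies inside the first interval and outside the second, whose lower bound is -0.91. Counts over the whole gene can include reads from a recombined allele, so this level does not check the genotype labels. Of the 8 stromal markers (Pdgfra, Pdgfrb, Prrx1, Col1a1, Col1a2, Thy1, Lepr and Cxcl12) every one had reads in every culture, and their summed level was 5931 to 32900 CPM. The cultures S9, S15 and S6 stood apart. Het 12M S9 had 34780 CPM of 7 summed macrophage markers (Lyz2, Adgre1, Csf1r, Cd68, Ptprc, Itgam and Tyrobp), where the sums of WT cultures were 126.5 to 1584 CPM at 3 months and 35.7 to 2324 at 12 months, and those of the other Het cultures 122 to 1213 at 3 months and 20.7 to 2306 at 12 months. Adgre1 and Ptprc were at 0 in 1 culture each. Het 12M S15 had the lowest stromal sum and 488 CPM of mitochondrial COX1 against 4323 to 9340 CPM elsewhere. WT 12M S6 had 1442 CPM of 7 summed Schwann cell markers against at most 866.5 CPM elsewhere, with Sox10, the defining factor of that lineage, at 231 CPM against 0 to 3.89 CPM in the other 16 cultures. Sox10, Foxd3 and Ngfr were highest in S6. S100b was at 13.1 CPM there against up to 96.0 CPM elsewhere, and Pmp22, at 313 CPM, was the second lowest of the 17. The sum in S9, the next highest after S6, was mostly Pmp22 (842 CPM). The sum of 3 proliferation markers (Mki67, Top2a and Ccnb1) was 281 CPM in WT 12M S6 and 251 CPM in WT 12M S13, and 28.2 to 160 CPM in the other 15 cultures. In WT 12M the labelled sex went against sex-linked transcripts in 3 cultures (S2, S6 and S13), and S7 had both Xist and Ddx3y, so sex cannot be adjusted for there from the labels. In the other groups these transcripts went with the labels. In WT 3M S3 and S4 were female and S5 and S12 male. In Het 3M S14 was female and S8 and S10 male, and in Het 12M S17 was male and the others female. Age and sex are therefore partly confounded in Het. In bulk RNA fewer cells of a type and less RNA per cell cannot be told apart.

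The 10 genes ran from scarce to abundant. On the scale of CPM per kilobase of exon, the median over the 17 cultures was 113 for Junb, 88.4 for Ier2, 77.8 for Egr1, 51.5 for Fos, 34.6 for Jun, 32.5 for Klf2, 28.8 for Klf4, 5.66 for Egr2, 2.36 for Fosb and 0.549 for Egr3. Egr3 rested on 10 to 183 reads per culture, and the 10 reads in S15 have an exact 95% Poisson interval of 4.8 to 18.4, which covers counting error only. The other 9 genes had at least 109 reads in each culture. The ratio of the highest to the lowest culture was 17.8 for Ier2, 13.7 for Fosb and 12.7 for Egr2, and it was smallest for Klf2 (2.92) and Jun (3.15).

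WT 12M had the lowest group median in 9 of the 10 genes, and for Jun the lowest was Het 3M. The highest median was in WT 3M for 6 genes (Fos, Fosb, Egr1, Egr2, Egr3 and Klf4) and in Het 12M for 4 (Jun, Junb, Ier2 and Klf2). For Fos, Fosb, Egr1, Egr2 and Egr3 the highest WT 3M values were those of S3 and S4, while for Klf4 S12 was highest. S3 and S4 are the alike WT 3M pair and its only females, so pair and sex cannot be told apart there. Ordered by median, 29 of the 30 neighbouring pairs of groups overlapped in their cultures, the exception being Fos in Het 3M and WT 12M. Those groups differ in both genotype and age. The shares of all genes with such orders or overlaps were not computed. The levels below are CPM scaled by trimmed means (TMM), and the values of a group follow its S numbers from low to high.

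**Figure D1:**
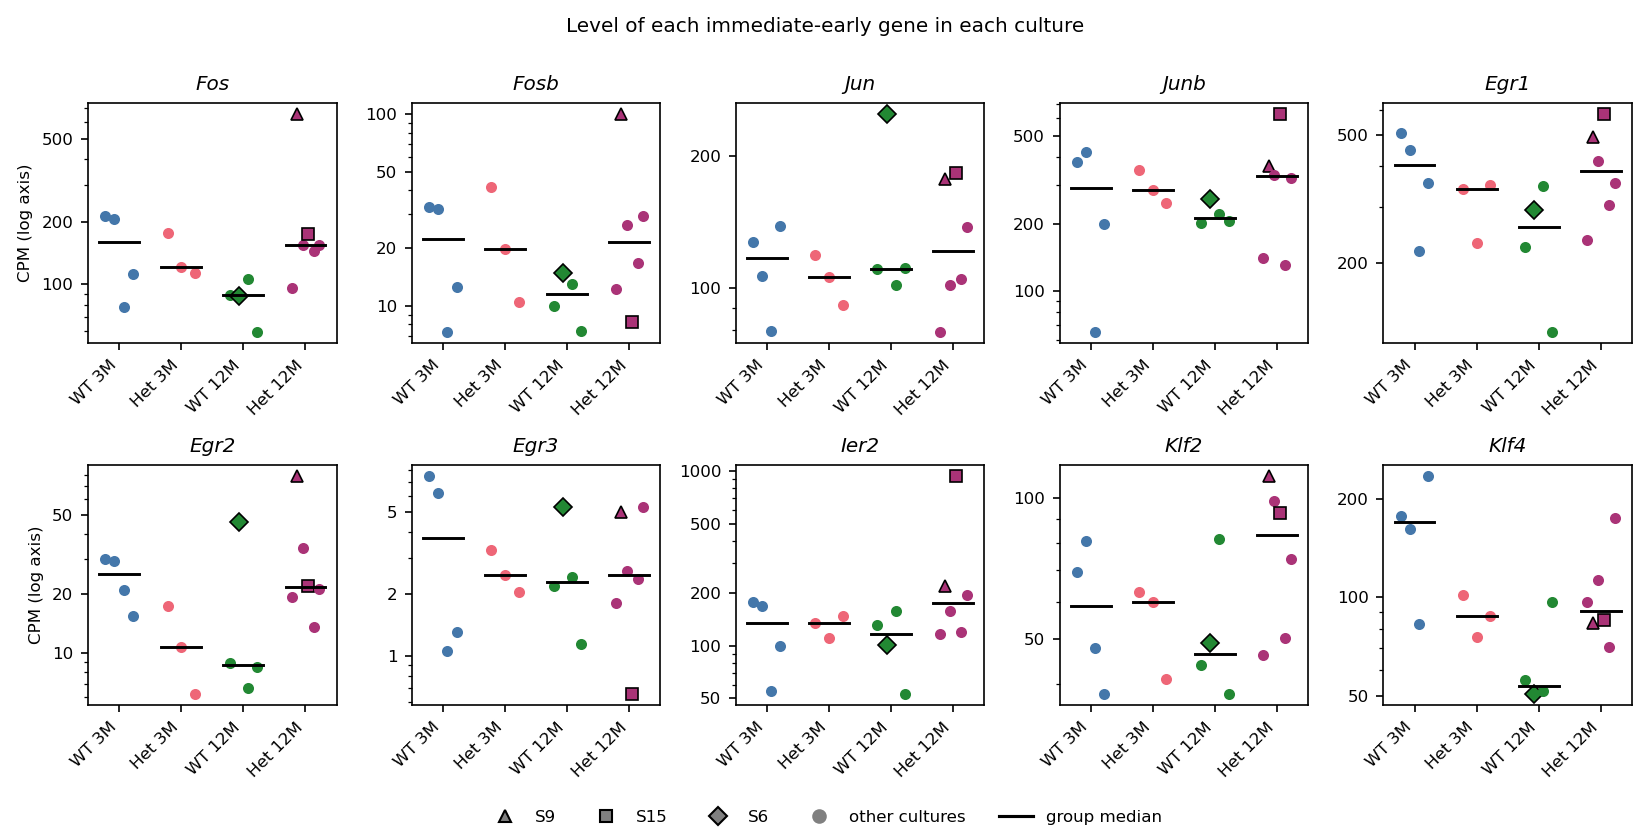
Level of each of the 10 genes (CPM, log axis) in each of the 17 cultures by group, 1 point per culture, with the group median as a bar and the 3 cultures that stood apart drawn as a triangle (S9), a square (S15) and a diamond (S6). The WT 12M bar is the lowest in every panel but Jun, and S9 or S15 is the highest point in 7 panels (Fos, Fosb, Junb, Egr1, Egr2, Ier2 and Klf2).

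The FOS subunits of AP-1, which bind DNA chiefly as partners of JUN proteins, are Fos (chr12:85473890-85477274) and Fosb (chr7:19302696-19310118) here. Fos was at 212, 206, 78.1 and 112 CPM in WT 3M, at 175.5, 121 and 113 CPM in Het 3M, and at 89.1, 88.3, 106 and 59.1 CPM in WT 12M. In Het 12M Fos ran from 96.0 to 658 CPM with a median of 154. The highest Het 12M culture was S9, and the next highest was at 173.5 CPM, inside the WT 3M range. The part of the macrophage markers of S9 in its values was not tested. All WT 12M cultures lay below all Het 3M cultures, while 1 Het 12M culture (S1) fell among the WT 12M cultures.
Fosb, the less abundant paralogue, was at 32.7, 32.02, 7.31 and 12.5 CPM in WT 3M and at 41.8, 19.8 and 10.5 CPM in Het 3M. It was at 9.93, 14.7, 13.01 and 7.41 CPM in WT 12M and from 8.24 to 100.3 CPM, with a median of 21.5, in Het 12M. S9 was again the highest of all, and every pair of groups overlapped. The group means ± SD of Fos were 152 ± 67.3, 137 ± 33.8, 85.8 ± 19.6 and 230.1 ± 211 CPM (n = 4, 3, 4 and 6, in the order WT 3M, Het 3M, WT 12M, Het 12M), so the spread in Het 12M was nearly as large as its mean.

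The JUN subunits can bind DNA as their own dimers as well as with FOS. Jun (chr4:95049036-95052222), whose product is the target of the JNK kinases, was at 128, 106, 79.7 and 138 CPM in WT 3M, 119, 106 and 91.4 CPM in Het 3M, and 110.3, 249.9, 101.5 and 111 CPM in WT 12M. In Het 12M Jun ran from 79.3 to 183 CPM with a median of 121. The highest of the 17 cultures was WT 12M S6, the culture with the highest Schwann marker sum, and the other 3 WT 12M cultures lay within the range of each other group.
Junb (chr8:84976909-84978748), often the weaker activator of the pair, was at 381.5, 425, 65.3 and 200.4 CPM in WT 3M, 352, 284.5 and 249.6 CPM in Het 3M, and 202, 261, 221 and 206 CPM in WT 12M. In Het 12M it ran from 130.3 to 630 CPM with a median of 329. The WT 12M cultures were tightly placed (222 ± 26.8 CPM, SD, n = 4), inside the range of WT 3M (268 ± 166, n = 4), whose culture S5 was the lowest of all 17.

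The EGR genes encode 3 zinc-finger activators with a shared DNA-binding domain. Egr1, the most abundant of them, was at 507, 451, 218 and 355.5 CPM in WT 3M, 340, 231 and 350 CPM in Het 3M, and 225, 293, 349 and 122 CPM in WT 12M. In Het 12M Egr1 ran from 237 to 583 CPM with a median of 386. WT 12M held the lowest culture (S13), and its range overlapped that of each other group.
Egr2 (chr10:67534469-67542188), also known as Krox20 and as the regulator of myelination in Schwann cells, was at 29.8, 29.1, 20.9 and 15.3 CPM in WT 3M and at 17.2, 10.8 and 6.20 CPM in Het 3M. In WT 12M it was at 8.90, 45.9, 6.64 and 8.50 CPM, and in Het 12M from 13.6 to 78.8 CPM with a median of 21.5. WT 12M S6 was at 45.9 CPM while the other 3 WT 12M cultures lay below every WT 3M and every Het 12M culture. S6 was also the culture with Sox10 at 231 CPM, and the part of these markers in the result was not tested.
Egr3 (chr14:70077317-70082613), a paralogue that is known as a target of EGR1, was at 7.50, 6.16, 1.06 and 1.30 CPM in WT 3M, 3.28, 2.48 and 2.05 CPM in Het 3M, and 2.18, 5.28, 2.42 and 1.14 CPM in WT 12M. In Het 12M it ran from 0.654 to 5.28 CPM with a median of 2.49. The 4 groups overlapped in every pair.

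Ier2 (chr8:84661331-84662852) encodes a small nuclear protein of the immediate-early class. It was at 177, 170, 55.2 and 99.6 CPM in WT 3M, 135, 111.5 and 149 CPM in Het 3M, and 131.5, 101.5, 158 and 52.9 CPM in WT 12M. In Het 12M it ran from 117 to 941 CPM with a median of 177. The value of 941 CPM was in S15, the culture with little COX1, and the next highest Het 12M culture was at 220.2 CPM.

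Among the Krüppel-like factors, Klf2 (chr8:72319062-72321654), a regulator of endothelial and T cell quiescence, was at 69.6, 80.8, 47.8 and 38.1 CPM in WT 3M, 62.8, 60.0 and 41.0 CPM in Het 3M, and 43.9, 48.9, 81.8 and 38.2 CPM in WT 12M. In Het 12M Klf2 ran from 46.1 to 111 CPM with a median of 83.4. The 3 highest of all 17 cultures (S9, S11 and S15) were Het 12M.
Klf4 (chr4:55527137-55532475), a pluripotency factor that also restrains proliferation, was at 177, 161.5, 82.7 and 235 CPM in WT 3M and at 102, 75.6 and 87.7 CPM in Het 3M. In WT 12M it was at 55.7, 50.6, 51.7 and 96.8 CPM, and in Het 12M it ran from 70.5 to 175 CPM with a median of 91.0. Of the 4 WT 12M cultures 3 lay below all of the other 13 cultures, and the remaining one (S13) lay above the lowest WT 3M culture (S5). The mean ± SD of WT cultures was 164 ± 62.7 CPM (n = 4) at 3 months and 63.7 ± 22.2 CPM (n = 4) at 12 months, and that of Het cultures was 88.4 ± 13.2 (n = 3) and 104 ± 37.5 CPM (n = 6).

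The genes tended to be high or low together in the same culture, ranked here over all 17 cultures and not within groups. S3 was among the 3 highest cultures for 6 of the 10 genes and S9 for 7, while S5 and S13 were each among the 3 lowest for 7. S13 was 1 of the 2 cultures with the most proliferation marker reads, whose part in the result was not tested. The sum of the 10 genes ran in WT from 655.8 to 1722 CPM at 3 months and from 703.6 to 1158 at 12 months, and in Het from 1022 to 1347 and from 846 to 2719. The lowest WT 3M sum was in S5, which had the highest sum of 7 endothelial markers (81.2 CPM against 0 to 41.4 CPM elsewhere), whose part in the result was not tested. Of those 7 markers Cldn5 was at 0 in 14 of 17 cultures and Tie1 in 7, and their sum ran from 4.98 to 81.2 CPM (3 months) and 1.54 to 12.0 (12 months) in WT, and from 1.48 to 41.4 and 0 to 13.7 in Het.

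**Figure D2:**
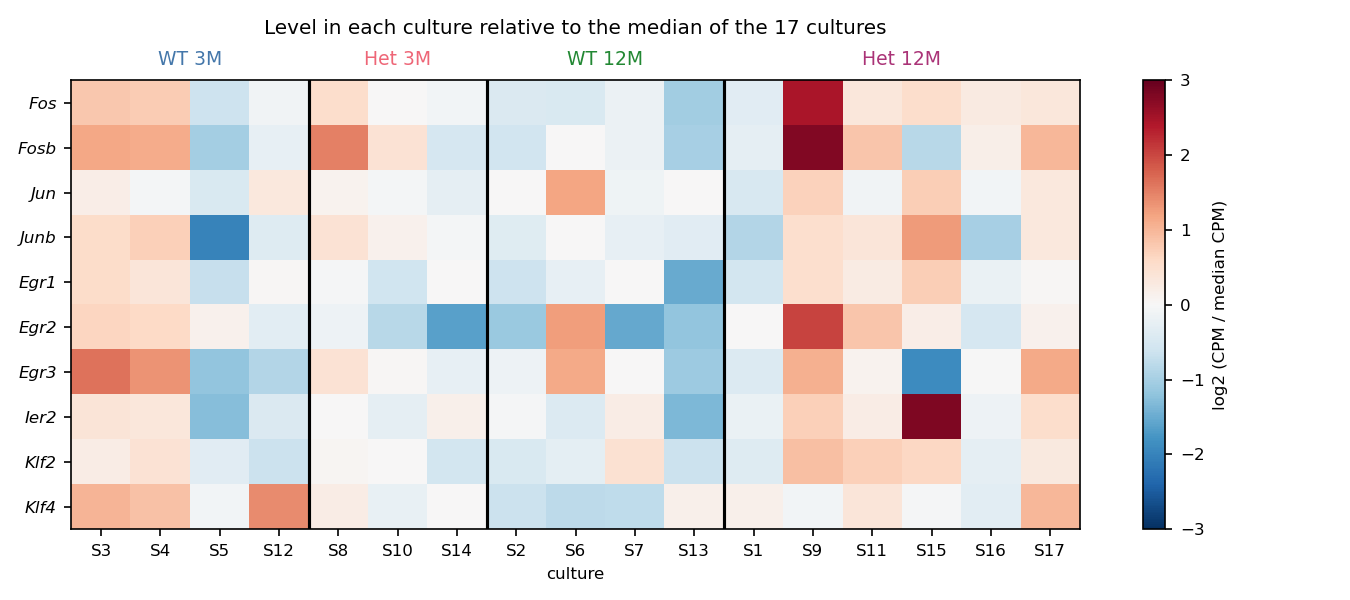
Colour gives the log2 ratio of each gene's CPM to its own median over the 17 cultures (red higher, blue lower), with genes in rows and cultures in columns by group. Columns S3, S4 and S9 are mostly red and columns S5 and S13 mostly blue, and the Ier2 square of S15 is among the darkest.

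At 3 months, Klf4 and Egr2 had the largest fitted differences between genotypes, both lower in Het. Klf4 was lower by 0.89 ± 0.36 on the log2 scale (SE), and Egr2 differed by -1.06 ± 0.69. The other 8 genes lay between -0.62 (Egr3) and 0.18 (Fosb), and 7 of the 10 were fitted lower, with a median of -0.13 against -0.02 over all genes tested. None of the 10 passed the test (edgeR quasi-likelihood test, Benjamini-Hochberg adjusted p = 0.9999 for each), as for 0% of the 14897 genes. At an unadjusted p under 0.05, 1 of the 10 (Klf4) was lower and 0 were higher, against 0.792% and 0.812% of all genes. None of the 10 had groups that did not overlap, against 6.78% of all genes in either direction. With limma voom and weights for sample quality, Klf4 (-0.89, adjusted p = 0.0045) and Egr2 (-0.92, adjusted p = 0.036) passed, in a fit whose weights ran from 0.118 (S15) to 8.88 (S8). The largest weights were those of S8, S3 (7.32) and S10 (2.95), which belong to the most alike pairs of cultures. Over the other settings their adjusted p lay between 0.73 (Egr2) and 1.

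At 12 months, 9 of the 10 genes were fitted higher in Het than in WT, and the medians of all 10 were higher. The 2 FOS genes and Ier2 had the largest fitted values. Fos differed by 1.42 ± 0.48 (log2, SE), with an adjusted p of 0.42. Fosb differed by 1.51 ± 0.65 (adjusted p = 0.58) and Ier2 by 1.395 ± 0.57 (adjusted p = 0.53). Egr2 was at 0.85 ± 0.58, Klf4 at 0.71 ± 0.30, Egr1 at 0.69 ± 0.32, Klf2 at 0.57 ± 0.30, Junb at 0.53 ± 0.46, Egr3 at 0.11 ± 0.62 and Jun at -0.13 ± 0.29. The median of the 10 was 0.70, and over all genes tested it was 0.05, with 55.7% of genes fitted higher. None of the 10 passed the adjusted threshold, as for 0% of all genes. At an unadjusted p under 0.05, 5 of the 10 were higher (Fos, Fosb, Egr1, Ier2 and Klf4) and 0 lower, against 3.44% and 4.93% of all genes. The 10 genes were chosen with earlier results of these data known, and they vary together. This count is therefore not independent support, and the same holds for the counts in the other comparisons. None had groups that did not overlap, against 1.32% of all genes. DESeq2 called 106 genes and weighted voom 171 in this comparison, none of them among the 10.
Single cultures held much of the largest values. Without S9, the culture with 34780 CPM of macrophage markers, Fos was at 0.75, Fosb at 0.72 and Egr2 at 0.33. Without S15 Ier2 was at 0.53. Without WT 12M S6 Egr2 was at 1.95 and Jun turned to 0.27. Leaving out S13, Egr3 turned to -0.17. For Klf4 the value stayed between 0.49 and 0.97 whichever culture was left out.

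With age in WT, 9 of the 10 genes were fitted lower at 12 months and Jun was fitted higher. The same WT 12M cultures enter Het 12M against WT 12M with opposite sign, so these results are not independent of those. Klf4 had the largest difference, at -1.36 ± 0.33 (log2, SE, 95% interval -2.06 to -0.66), with 3 of the 4 WT 12M cultures below all 4 WT 3M cultures and an adjusted p of 0.41. Fosb was at -0.91 ± 0.68, Fos at -0.83 ± 0.50, Egr1 at -0.63 ± 0.35, Egr3 at -0.54 ± 0.68 and Egr2 at -0.45 ± 0.62. Junb (-0.27 ± 0.50), Ier2 (-0.18 ± 0.60) and Klf2 (-0.15 ± 0.32) were nearer to 0, and Jun was at 0.34 ± 0.32. The median of the 10 was -0.49, against 0.04 over all genes tested. None of the 10 passed the adjusted threshold, as for 0% of all genes, 1 (Klf4) was lower at an unadjusted p under 0.05 and 0 were higher, against 3.55% and 4.67% of all genes, and none had groups that did not overlap, against 8.1%.
DESeq2 called 53 genes with age in WT and weighted voom 1508. Klf4 passed with DESeq2 (-1.36, adjusted p = 0.027) and with the weighted voom fit (-1.62, adjusted p = 0.0013), while over the other settings its adjusted p was 0.17 to 0.78. Its value lay between -1.63 and -1.15 when any 1 culture was left out. The weighted fit also passed Egr2 (-1.67, adjusted p = 0.019), Fos (-1.06, adjusted p = 0.026) and Egr1 (-0.83, adjusted p = 0.040). Over the other settings the adjusted p of these 3 genes was at least 0.13. Voom without the weights, which was tried after the weighted result had been seen, passed 0 genes. Without WT 12M S6 the value of Egr2 was -1.58, that of Egr3 -1.07 and that of Jun -0.07. Without WT 3M S3 the value of Fos was -0.62, that of Fosb -0.61 and that of Egr3 -0.04. The alike WT 3M cultures S3 and S4 were not left out together, so the part of that pair was not tested.

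With age in Het, all 10 genes were fitted higher at 12 months. Egr2 was at 1.46 ± 0.67 and Ier2 at 1.15 ± 0.63, Fos at 0.75 ± 0.52 and Klf2 at 0.53 ± 0.33. The other 6 lay between 0.12 (Junb) and 0.42 (Fosb), and the median was 0.40, against 0.07 over all genes, of which 57.7% were fitted higher. None of the 10 passed the adjusted threshold (each adjusted p at least 0.946), as for 0% of all genes. At an unadjusted p under 0.05, 1 (Egr2) was higher and 0 were lower, against 1.56% and 1.72% of all genes. None had groups that did not overlap, against 1.91%. Without S9 the value of Fos was 0.07, that of Fosb -0.38 and that of Egr2 0.94, and without S15 the value of Ier2 was 0.28.

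The interaction, which is the Het minus WT difference at 12 months minus that at 3 months, was positive for 9 of the 10 genes, with a median of 1.17 against 0.08 over all genes. It shares its cultures with the 4 comparisons above. Klf4 was at 1.60 ± 0.47 (log2, SE, adjusted p = 0.58), Egr2 at 1.91 ± 0.90, Fos at 1.58 ± 0.72, Fosb at 1.33 ± 0.97, Ier2 at 1.32 ± 0.86 and Egr1 at 1.01 ± 0.49. Egr3 (0.73), Klf2 (0.68) and Junb (0.39) were smaller, and Jun was at -0.03. None of the 10 passed the adjusted threshold, as for 0% of all genes, and 3 (Klf4, Fos and Egr2) were positive and 0 negative at an unadjusted p under 0.05, against 2.5% and 3.26% of all genes. Here too the count comes from genes chosen with earlier results of these data known. The weighted voom fit passed Klf4 (1.92, adjusted p = 0.0043) and Egr2 (2.40, adjusted p = 0.016), whose adjusted p over the other settings was at least 0.14 and 0.092. Without S9 the value of Fos was 0.90, and without WT 12M S6 that of Egr2 was 3.01, while Klf4 stayed between 1.37 and 1.85.

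**Figure D3:**
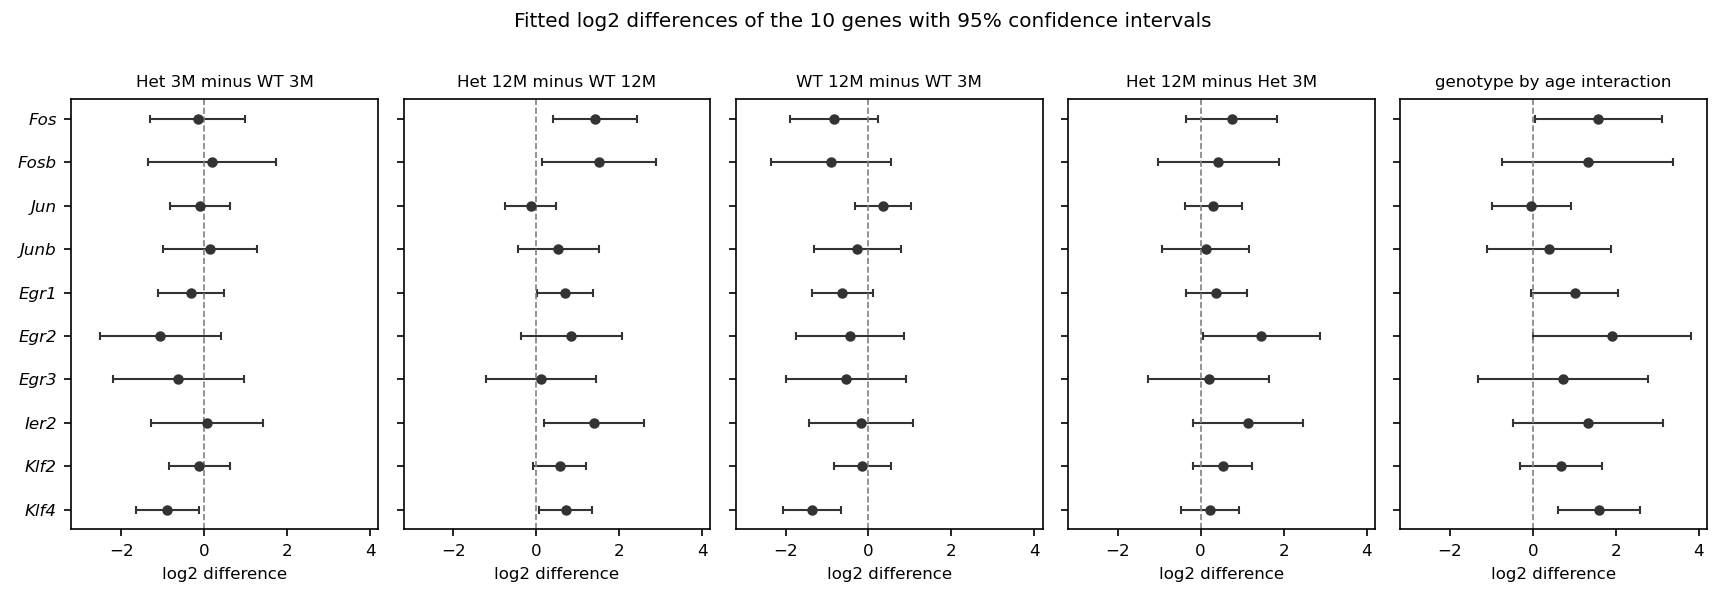
Fitted log2 differences of the 10 genes (points) with 95% confidence intervals (bars) in the 4 comparisons and the interaction, a dashed line marking 0. The points lie right of 0 for 9 genes in Het 12M minus WT 12M and left of 0 for 9 genes in WT 12M minus WT 3M, and the Klf4 interval in WT runs from -2.06 to -0.66. The same WT 12M cultures enter both of these comparisons with opposite sign.

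Over the 17 cultures the log2 levels of the 10 genes were positively correlated in 44 of 45 pairs, with a median Pearson r of 0.472. All 13 pairs that passed were positive, by a permutation test with 100000 resamples (2-sided, Benjamini-Hochberg over the 45 pairs). The share of pairs of other genes that would pass was not computed. Whether such correlation is particular to the 10 genes was therefore not tested. Fos and Fosb had the highest r of 0.866 (Spearman rho 0.797, permutation p = 2e-05, adjusted p = 9e-04). Without the 2 cultures farthest from the median of Fos the r was 0.727, and for deviations from the group means it was 0.854. Egr1 and Ier2 (r = 0.788, rho = 0.858, adjusted permutation p = 0.0048) were at 0.742 without the 2 farthest cultures. Fosb and Egr3 (r = 0.767, rho = 0.865, adjusted permutation p = 0.0044) were at 0.849, and Fos and Egr1 (r = 0.755, rho = 0.838, adjusted permutation p = 0.0063) at 0.801. Fos and Klf2 (r = 0.756, rho = 0.721, adjusted permutation p = 0.0025) were at 0.654 without the 2 farthest. Fos and Egr2 (r = 0.642, rho = 0.505, adjusted permutation p = 0.019) were at 0.313 without them (adjusted permutation p = 0.30), so the value over all cultures depends in part on them. Leaving out those cultures also narrows the range of Fos. The r of Fos and Egr2 was 0.589 both for deviations from the group means (adjusted permutation p = 0.042) and without S9, S15 and S6 (adjusted permutation p = 0.053). Of the 2 subunit types of AP-1, Fos and Jun were at 0.352 (adjusted permutation p = 0.25) and Fos and Junb at 0.569 (adjusted permutation p = 0.063, rho = 0.792).
Klf4 stood in no pair that passed over all 17 cultures. Its r with the other 9 genes ran from -0.05 (Jun) to 0.313 (Egr1), and with Klf2 it was 0.055. The number of pairs that passed was 19 for deviations from the group means and 14 without the 2 farthest cultures. Without S9, S15 and S6 it was 20, all positive, with a median r of 0.589. S5, among the 3 lowest cultures for 7 of the 10 genes, stayed in that set. In that set Klf4 stood in 1 pair that passed, with Egr2 (r = 0.629, adjusted permutation p = 0.040), and Jun and Klf4 were at 0.567 (adjusted permutation p = 0.063). There Egr3 and Ier2 were at 0.819, against 0.016 over all 17 cultures, where S15 had the highest Ier2 and the lowest Egr3.

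**Figure D4:**
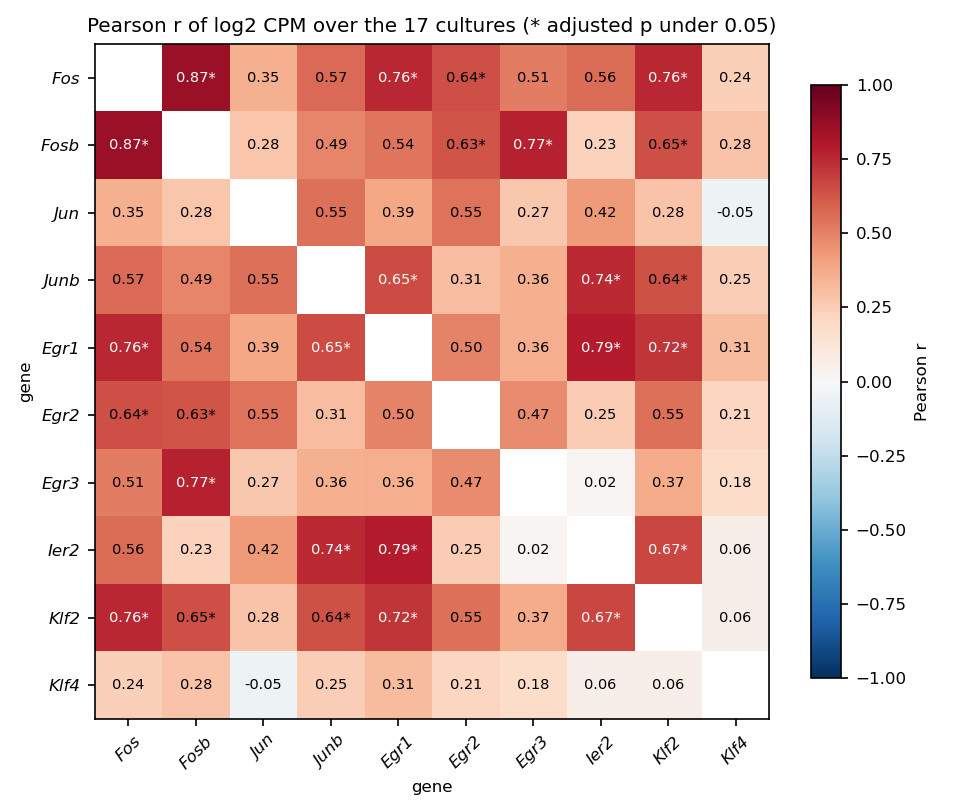
Pearson r of log2 CPM over the 17 cultures for each pair of the 10 genes, with an asterisk where the adjusted permutation p is under 0.05. Fos and Fosb have the highest value (0.87), and the Klf4 row holds no asterisk and no value above 0.31.

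Genes whose log2 level over the 17 cultures was most like that of the 10 genes were found by Pearson r alone. For the mean of the 10 they were Hpcal1 (0.877), Mcoln1 (0.851), Grina (0.851), Mroh1 (0.84) and Atp6v0b (0.834). Without S9 these values were 0.825, 0.788, 0.79, 0.808 and 0.771 in the same order. Mcoln1 encodes the lysosomal calcium channel mucolipin and Atp6v0b a subunit of the vacuolar proton pump. For Fos they were Psap (0.91), Ctsd (0.901), Atp13a2 (0.876), Flcn (0.869) and Arap1 (0.869), of which Psap and Ctsd encode the lysosomal proteins prosaposin and cathepsin D. S9, rich in macrophage markers, was the highest culture for Fos, and without it the values for Fos were 0.791 with Psap and 0.755 with Ctsd. The others fell further without S9, to 0.681 with Atp13a2, 0.667 with Flcn and 0.66 with Arap1. For Egr1 they were Rab40c (0.868), Pigs (0.864), Ap5z1 (0.812), Gdf15 (0.81) and Clasrp (0.801). For Klf2 they were Tango2 (0.833), Leprot (0.82), Ucp2 (0.812), Atp6v0d1 (0.791) and Cog8 (0.791).

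Relatives and companions of the 10 genes were read from lists chosen for their function, with earlier results of these data known. Of 35 other immediate-early genes, all tested, 26 were fitted lower and 9 higher with age in WT, with a median of -0.36, and 24 were fitted higher and 11 lower in Het 12M than in WT 12M, with a median of 0.29. None passed the edgeR threshold. At an unadjusted p under 0.05, 6 were lower and 0 higher with age in WT, against 3.55% and 4.67% of all genes. In Het 12M against WT 12M 4 were higher and 0 lower, against 3.44% and 4.93%. The smallest p in both comparisons was that of Btg2, an antiproliferative p53 target. Btg2 was at 100.2, 85.9, 111 and 94.1 CPM in WT 12M, at 407, 371, 167 and 202 CPM in WT 3M, at 388, 326 and 161 CPM in Het 3M and from 144 to 419 CPM, with a median of 227, in Het 12M. Every WT 12M culture lay below every other culture. Of the 14897 genes tested, 606 lay wholly lower in WT 12M than in WT 3M, and 70 wholly higher in Het 12M than in WT 12M. The log2 difference was 1.38 ± 0.37 for Het 12M against WT 12M (adjusted p = 0.24) and -1.55 ± 0.39 with age in WT (adjusted p = 0.44), and the same WT 12M cultures enter both. DESeq2 gave adjusted p-values of 0.030 and 0.037 for the same differences, and over 28 settings the values were 1.18 to 1.60 and -1.82 to -1.33.
The next smallest p was that of Plk2, a polo-like kinase (0.93 ± 0.29 in Het 12M against WT 12M), and that of Errfi1, a feedback inhibitor of the EGF receptor (-1.02 ± 0.33 with age in WT), and both passed in the weighted voom fit only (0.91, adjusted p = 0.047, and -1.52, adjusted p = 0.0018). In the other direction Spry4, an inhibitor of receptor kinase signalling, was at -0.50 ± 0.32 and the kinase gene Sgk1 at -0.58 ± 0.46 in Het 12M against WT 12M. Ier5l was at 0.80 ± 0.63 and Rhob, a small GTPase, at 0.37 ± 0.30 with age in WT. At 3 months 28 of the 35 were fitted lower in Het.

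Of 11 other AP-1, ATF and small MAF genes, 9 were tested. Of these, 7 were fitted lower with age in WT (median -0.32), and in Het 12M against WT 12M 5 were fitted higher (median 0.13). Atf3, a stress-induced repressor, was at 2.01 ± 0.99 in Het 12M against WT 12M, with S9 at 82.7 CPM against 0.589 to 19.6 CPM in the other 5 Het 12M cultures. Jund, the JUN member known for steady expression, was at 0.42 ± 0.42, with S15 above the 78.2 to 209 CPM of the other 5 Het 12M cultures, and at -0.10 without S15. Fosl2 and Fosl1, the FOS-related antigens, were at -0.50 ± 0.27 and -0.76 ± 0.65 in that comparison, and at -0.41 ± 0.30 and -0.74 ± 0.72 with age in WT. By weighted voom Fosl1 turned to 0.87 in the former (adjusted p = 0.52) and passed with age in WT (-2.23, adjusted p = 0.025). Without S9, S15 and S6 Fosl1 was at 0.09 in Het 12M against WT 12M. Jdp2 was at 0.15 ± 0.23 and Batf at 3.34 ± 1.43 with age in WT, Batf being at 0.04 to 0.144 CPM in WT 3M and passing by weighted voom (3.33, adjusted p = 0.0098). The NAB corepressors of EGR proteins were near to 0 in Het 12M against WT 12M (Nab1 0.06 ± 0.28, Nab2 -0.21 ± 0.27), and both turned sign under some settings.
Of 15 other KLF genes 12 were tested, and they were evenly divided in Het 12M against WT 12M, with 6 higher and 6 lower and a median of -0.01. Klf6 was at 0.27 ± 0.20 and Klf3 at 0.14 ± 0.34, while Klf9 was at -0.61 ± 0.42 and Klf16 at -0.42 ± 0.31. Klf9 turned to 0.12 by weighted voom, and Klf3 to -0.05 without S16. With age in WT 7 of the 12 were fitted lower, led by Klf7 (-0.80 ± 0.43) and Klf3 (-0.60 ± 0.37), while Klf16 (0.49 ± 0.35) and Klf8 (0.26 ± 0.58) were fitted higher. Weighted voom passed Klf3 (-0.70, adjusted p = 0.018) and Klf8 (1.21, adjusted p = 0.041) there. The 20 upstream factors and kinases, all tested, had a median of 0.07 in Het 12M against WT 12M and of -0.17 with age in WT. Among them the JNK genes Mapk9 (0.24 ± 0.17) and Mapk8 (0.32 ± 0.34) were fitted higher, and the ternary complex factors Elk3 (-0.29 ± 0.23) and Elk1 (-0.18 ± 0.24) lower, in Het 12M, both Elk genes turning sign by weighted voom (0.19 and 0.04). With age in WT the ERK gene Mapk3 was at 0.60 ± 0.28 and Mapk7 at 0.25 ± 0.33, and Mapk8 was at -0.72 ± 0.37 and Atf2 at -0.63 ± 0.33.

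**Figure D5:**
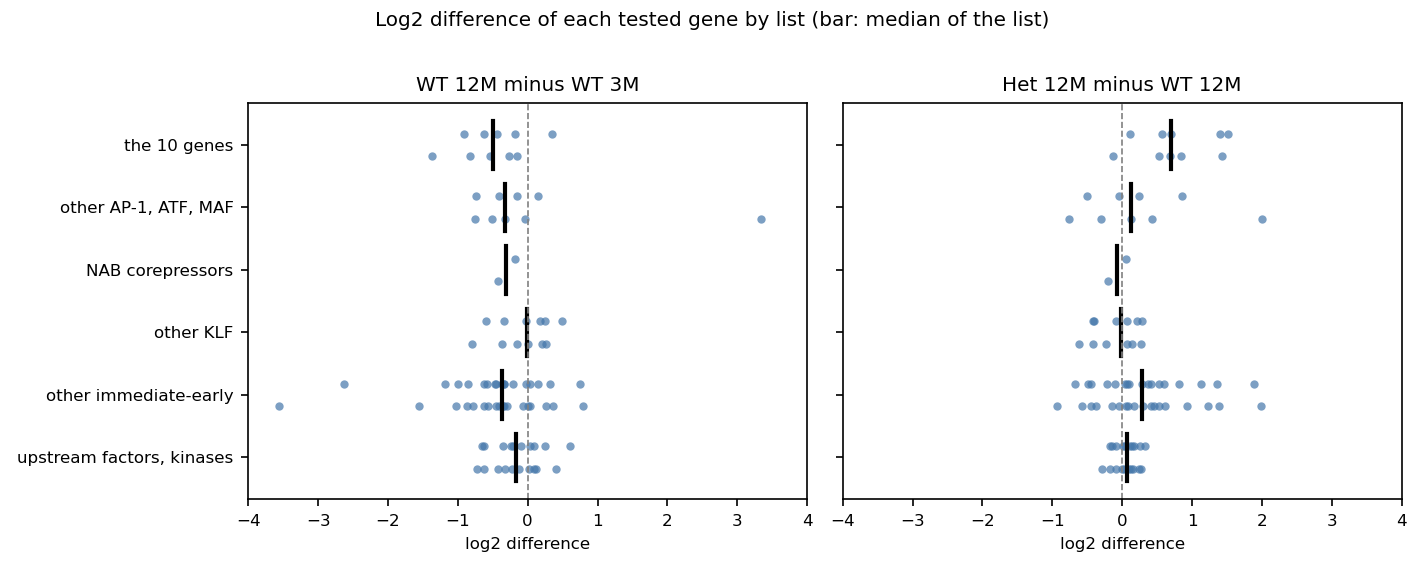
Log2 difference of each tested gene by list (1 point per gene, bar at the median of the list) with age in WT on the left and for Het 12M minus WT 12M on the right. The bar of the 10 genes is at -0.49 on the left and 0.70 on the right, and that of the other KLF genes is at -0.01 in both. The same WT 12M cultures enter both panels with opposite sign.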

How the data were processed

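The authors deposited raw read counts per Entrez gene for 68 libraries (17 cultures with 4 technical replicates each), aligned and counted with Subread and featureCounts on mm10, per the submitters' processing notes. Versions, annotation and the treatment of reads with several matches are not given in the sources used here, and the library kit does not mark strand. Counts were summed over technical replicates (chi-square per degree of freedom 1.02 to 1.06 within a culture, 18.5 to 791 between cultures). The lowest pairs of cultures were S8 and S10 (18.5) and S3 and S4 (40.9). Symbols from a RefSeq table were matched to 25275 of 27179 identifiers. Genes kept by filterByExpr (14897) were tested with edgeR 4.0.16 in R 4.3.3 (TMM, quasi-likelihood, a term per group, 2-sided, Benjamini-Hochberg over all genes tested, called at an adjusted p under 0.05), and the code was tested on simulated data. The biological coefficient of variation was 0.512. CPM are TMM-scaled, and correlations used log2 CPM with a prior count of 2. No sex term was used. Alternatives were DESeq2 1.42.0, limma 3.58.1 voom with and without sample weights, other scalings and filters, labelled sex, only the groups compared, technical replicate 1 alone, and fewer cultures. The members and lists were chosen with earlier results of these data known. All 10 genes are named throughout, and from each other list the 2 with the smallest p in each direction of a comparison where it is described. The genes of most similar pattern are the 5 with the highest r, predicted genes left out.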

Additional observations from a re-analysis of the deposited data

Results flagged for a closer look

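A single culture lay far from the rest of its group in 7 of the 30 groups tested. Dixon's test was run on CPM at the 95% level, gene by gene, in the groups of 4 and 6 cultures. Chance flags about 1 in 20 where values are normally distributed. The CPM were not log-transformed, and each flagged value was the highest of its group. The genes vary together in the same cultures, and S9 and S6 were each flagged for more than 1 gene. The 7 flags are therefore not independent, and their number cannot be set against that rate. In Het 12M, S9 was at 658 CPM for Fos (next 173.5), 100.3 CPM for Fosb (next 29.3) and 78.8 CPM for Egr2 (next 34.0), and S15 was at 941 CPM for Ier2 (next 220.2). In WT 12M, S6 was at 249.9 CPM for Jun (next 111) and 45.9 CPM for Egr2 (next 8.90), and S13 was at 96.8 CPM for Klf4 (next 55.7).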

How the results depend on the processing

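No paired analysis was possible because the numbers that groups share are technical replicate numbers of 1 library, which were summed, and S numbers belong to 1 culture each. The edgeR count of genes called was 0 in each comparison. DESeq2 called 0 genes in Het 3M against WT 3M, 106 in Het 12M against WT 12M, 53 with age in WT, 1 with age in Het and 35 for the interaction. Voom with quality weights called 1292, 171, 1508, 1 and 939 in the same order. Leaving out the 3 cultures that stood apart gave 2 with age in WT. S5 was not among these 3, though its weight in the weighted voom fit (0.306) was below those of S9 (0.312) and S6 (0.327). When 1 culture was left out, the count ranged from 0 to 2 in Het 12M against WT 12M (2 without S13, 1 without S7) and from 0 to 1 with age in WT (1 without S15). The correlated pairs numbered 20 without the 3 cultures, against 13. The medians of the 10 genes had the same direction in every setting. Of 540 other values of single genes, 512 had the same direction and side of the threshold, 9 newly passed and 19 turned sign, the cause of which was not tested. In Het 3M against WT 3M, Fos was 0.066 and Klf2 0.020 with the labelled sex as a term, and Junb was -0.091 and Ier2 -0.32 by weighted voom. In Het 12M against WT 12M, Jun was 0.029 by weighted voom. With age in WT, Jun was -0.12 by weighted voom and -0.074 without the 3 cultures, and Junb 0.048 by voom without weights. With age in Het, Fosb was -0.38 by weighted voom and -0.19 without the 3 cultures. There Junb was -0.36 by weighted voom, -0.077 without weights, -0.13 with the sex term and -0.35 without the 3 cultures, and Egr3 was -0.038 with the sex term and -0.21 from technical replicate 1. In the interaction, Jun was 0.13 by weighted voom and 0.077 without the 3 cultures, and Junb -0.12 by voom without weights. Leaving out 1 culture turned the sign in 33 of 850 values. With 1 culture left out the values that turned ran in Het 3M against WT 3M for Fos from -0.38 to 0.049, Fosb from -0.49 to 0.54, Jun from -0.23 to 0.016, Junb from -0.18 to 0.46, Ier2 from -0.17 to 0.28 and Klf2 from -0.27 to 0.088. In Het 12M against WT 12M they ran for Jun from -0.27 to 0.27 and Egr3 from -0.17 to 0.62. With age in WT they ran for Jun from -0.075 to 0.47, Junb from -0.60 to 0.040, Ier2 from -0.43 to 0.057 and Klf2 from -0.44 to 0.043. With age in Het they ran for Fosb from -0.38 to 1.05, Junb from -0.21 to 0.26 and Egr3 from -0.087 to 0.38. In the interaction they ran for Jun from -0.17 to 0.36.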
